A study of Homo sapiens and Mus musculus with 34 samples.

Results

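The genes of the super elongation complex and the SPT elongation factors were followed through a 1 h exposure of human neuroblastoma cells to CYC065, an inhibitor of cyclin-dependent kinases that acts on CDK9. The group was a fixed set of 10 gene symbols (AFF1, AFF4, ELL, ELL2, EAF1, MLLT1, MLLT3, SUPT5H, SUPT4H1 and SUPT6H), all of which were found among the 30905 named genes of the human arrays. The rule picks the genes by symbol and not by a measured value, although earlier results of these data were known when the set was made. Measured values do name the array rows, and the brighter row stands for a gene that has 2. RNA was measured on Affymetrix human transcriptome arrays in 4 lines, with 3 CYC065 arrays and 3 untreated arrays per line (24 arrays). Kelly, SKNAS, BE2C (written BE(2)C in some labels) and SHSY5Y cells received 1 µM CYC065 for 1 h according to the sample labels, but the treatment protocol gives 5 µM for SKNAS. The labels call the controls untreated, whereas the design text speaks of cells given the equivalent of DMSO and of 3 biological replicates per group. MYCN is amplified in Kelly and BE2C and not in SKNAS or SHSY5Y, which is general knowledge of these lines. Kelly and SKNAS came in an earlier deposit and BE2C and SHSY5Y in a later one, so levels were compared only within a deposit. A further 10 mouse tumor arrays were not analysed here.

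Shortly after initiation RNA polymerase II halts near many promoters, held by NELF and by DSIF, the dimer of SPT5 and SPT4. Release needs P-TEFb, the kinase pair of CDK9 and a cyclin T, which is kept inactive in the 7SK ribonucleoprotein or carried in an active form by the super elongation complex, where AFF1 or AFF4 is the scaffold, ELL or ELL2 the elongation factor, EAF1 a partner of the ELL proteins, and MLLT1 (ENL) or MLLT3 (AF9) the subunit that reads acylated histones. SPT6 is a histone chaperone that travels with the elongating polymerase. Array levels are log2 values of RNA, so nothing here measures the proteins or the activity of the complex.

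Over the named genes, arrays of the same group had Pearson's r of 0.9943 to 0.9986. Mean untreated MYCN levels were 11.74 in Kelly, 6.07 in SKNAS, 11.72 in BE2C and 6.86 in SHSY5Y. Array means over 6 adrenergic neuroblastoma markers lay between 7.77 and 7.83 on untreated SKNAS arrays and between 9.49 and 10.04 on those of the other lines. DBH, the noradrenaline-making enzyme and a defining marker, was at 5.97 in untreated SKNAS, against 11.53 to 12.47 in the others. This was the widest gap of the list. The gaps were much smaller for GATA3 (9.31, against 9.68 to 10.53), ISL1 (8.62, against 9.38 to 9.80) and HAND2 (9.09, against 9.84 to 10.35). PHOX2A (7.36, against 8.76 to 9.65) and TH (6.42, against 7.10 to 9.06) were also lower in untreated SKNAS. On CYC065 arrays the adrenergic means were lower in every line (9.16 to 9.23 in Kelly, 7.21 to 7.30 in SKNAS, 9.18 to 9.27 in BE2C and 9.35 to 9.41 in SHSY5Y). Not all of the markers moved this way: in Kelly GATA3 averaged 8.43 with CYC065 and 10.16 untreated, whereas DBH averaged 11.90 with CYC065 and 11.96 untreated, and the TH means were higher with CYC065 in all 4 lines (9.38 against 9.06 untreated in Kelly). Of 5 markers of other cell types 4 were measured, and their array means were 7.80 or above on untreated SKNAS arrays and 4.63 to 4.93 on the other untreated arrays. Array means over 6 mesenchymal markers were 7.37 to 7.43 on untreated SKNAS arrays and 5.83 to 6.19 on the other untreated arrays. FN1 went against this, at 5.97 in untreated SKNAS, against 7.85 in Kelly, 6.01 in SHSY5Y and 5.55 in BE2C. The other mesenchymal markers were highest in SKNAS, WWTR1 only narrowly (5.57, against 4.81 to 5.20). PTPRC, the common leukocyte antigen, was at 8.65 in untreated SKNAS and at 3.10 or below in the others. The macrophage marker CD68 (9.70, against 6.35 to 6.61 in the others) and the epithelial keratin KRT18 (9.85, against 5.84 to 6.23) were likewise higher in untreated SKNAS, and the endothelial marker PECAM1 was not (3.40, against 3.53 to 3.81). Of leukocyte genes picked after these values were seen, CD53 was at 3.25 in untreated SKNAS, against 3.28 to 3.44 elsewhere. SPI1 was at 5.56, against 5.47 to 6.02, and LCP1 at 4.30, against 7.37 in Kelly, 5.67 in BE2C and 4.50 in SHSY5Y. The part of these differences in any result below was not tested.

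ELL was the member that fell most widely: all 3 CYC065 arrays lay below all 3 untreated arrays in each of the 4 lines, and the fall passed the test in Kelly, SKNAS and BE2C. ELL2 fell in Kelly and on the average over the lines, but its average in the later deposit alone was -0.00. AFF4 and EAF1 fell in Kelly and on the average on their brighter rows, and not on their dimmer rows. No member was called higher in any line. SUPT5H, SUPT4H1, MLLT1, MLLT3 and AFF1 passed no test of a change within a line, and neither did SUPT6H.

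Changes were tested with limma, and calls were made at an adjusted p under 0.05, by Benjamini-Hochberg over all 30905 named genes, with no minimum fold. In Kelly 4 members were called lower, where 11.7% of all genes were, and 0 higher, where 9.49% of all genes were. In SKNAS 1 member was called lower (4.91% of all genes) and 0 higher (1.43%). In BE2C 1 was called lower (3.32%) and 0 higher (0.718%). In SHSY5Y 0 were called lower (4.30%) and 0 higher (0.427%). The average over the 4 lines gave 4 members lower (13.6% of all genes) and 0 higher (16.1%). The median change over the 10 members was -0.16 in Kelly, -0.01 in SKNAS, -0.05 in BE2C and -0.03 in SHSY5Y on the log2 scale, against medians over all genes of 0.07, 0.03, 0.01 and 0.02 in the same order of lines. Among all genes called in Kelly 44.8% were higher, and this share was 28.5% when each array was centred on its median and 52.8% after quantile normalisation.

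**Figure D1:**
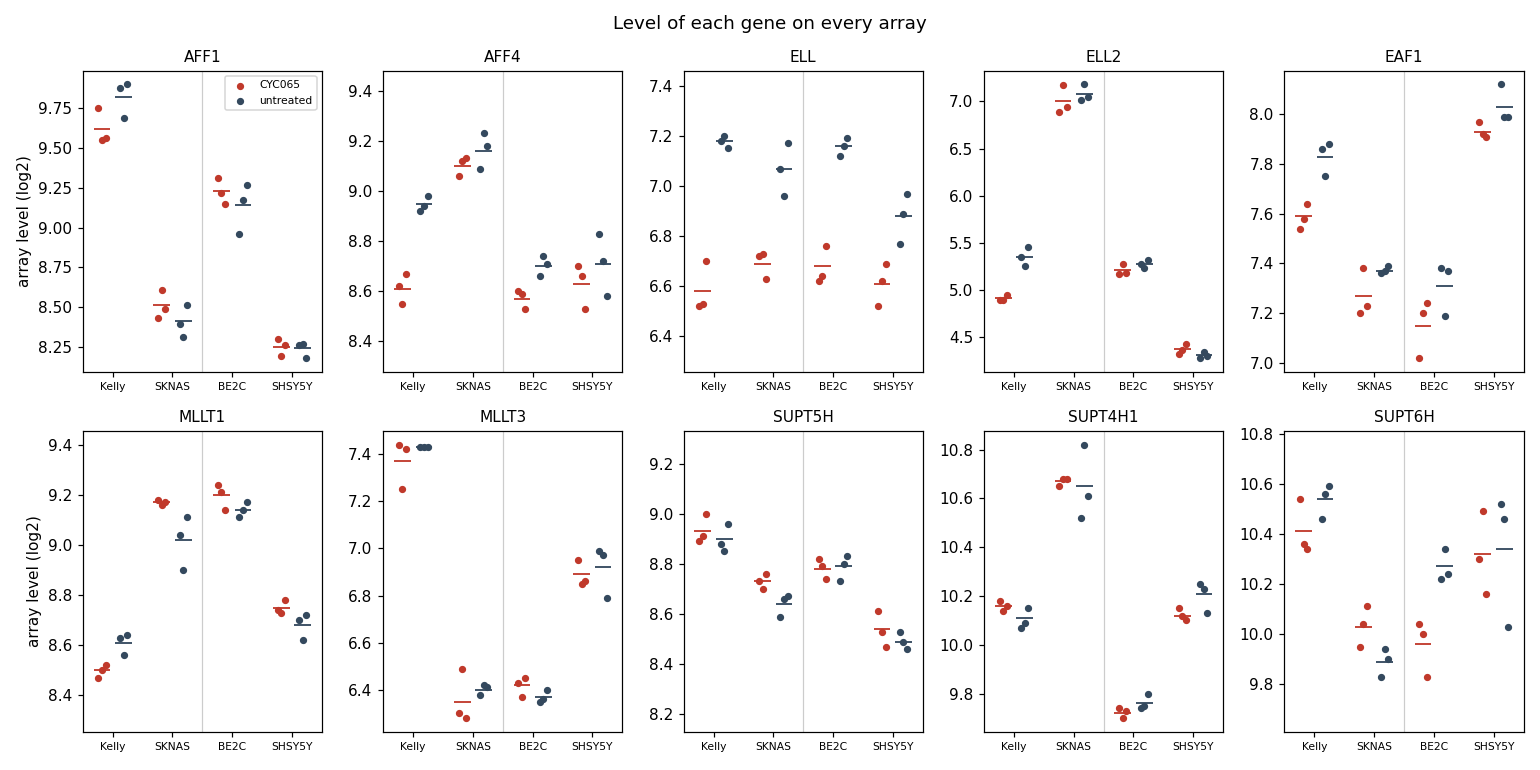
Level of each of the 10 genes on every human array (log2, points), by line, with CYC065 arrays left of untreated arrays and a bar at each mean of 3 arrays. The vertical line in each panel separates the deposits, and ELL is the gene whose CYC065 points lie below the untreated points in all 4 lines.

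Counted without a model, 5 members had every CYC065 array below every untreated array in Kelly (16.1% of all genes) and 0 had every one above (27.8%). In SKNAS 1 member lay wholly below (11.3% of all genes), while MLLT1, SUPT5H and SUPT6H made 3 wholly above (13.9%). In BE2C 4 members, ELL, AFF4, SUPT4H1 and SUPT6H, lay wholly below (12.9%) and 0 above (11.0%). In SHSY5Y 2, ELL and EAF1, lay wholly below (10.6%) and 1, MLLT1, above (8.06%). With 10 members these shares rest on few genes. Some of the gaps were narrow. SUPT4H1 in BE2C was at 9.74, 9.70 and 9.73 with CYC065 and at 9.74, 9.75 and 9.80 untreated. Its change there was -0.04 ± 0.05 (limma, adjusted p 0.742). In SHSY5Y the highest EAF1 array with CYC065 was at 7.97 and the lowest untreated one at 7.99. For MLLT1 in SHSY5Y the lowest CYC065 array was at 8.73 and the highest untreated one at 8.72. For SUPT6H in SKNAS these were at 9.95 and 9.94.

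**Figure D2:**
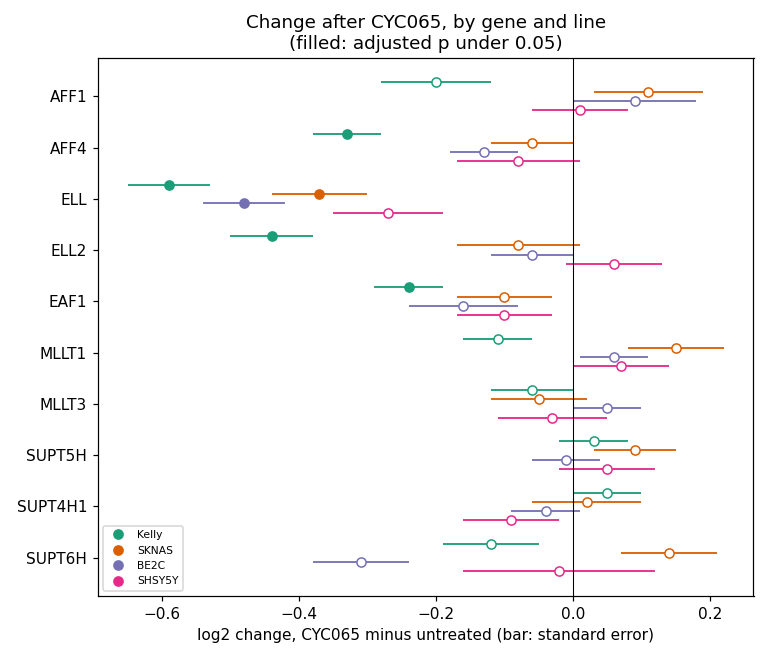
Change of each gene in each line (log2, CYC065 minus untreated), with bars of 1 standard error. Filled points have an adjusted p under 0.05 in limma: 4 in Kelly (ELL, ELL2, AFF4 and EAF1), ELL in SKNAS and ELL in BE2C.

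ELL, which raises the rate at which the polymerase moves along DNA, lies on the minus strand of chromosome 19 (18442663 to 18522070, GRCh38.p14). Its promoter window, 250 bases before to 50 after the start as RefSeq gives it, is shown because this gene changed in the most lines, with the GC boxes in capitals (chr19:18522021-18522320, minus strand).
ELL: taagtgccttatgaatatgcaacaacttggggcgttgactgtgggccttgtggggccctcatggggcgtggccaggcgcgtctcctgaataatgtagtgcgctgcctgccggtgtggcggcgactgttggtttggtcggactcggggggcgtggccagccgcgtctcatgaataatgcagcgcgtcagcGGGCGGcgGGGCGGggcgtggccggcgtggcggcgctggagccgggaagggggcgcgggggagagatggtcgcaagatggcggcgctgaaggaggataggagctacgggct
In Kelly the ELL level was 6.52, 6.53 and 6.70 on CYC065 arrays, against 7.18, 7.20 and 7.15 on untreated arrays. In BE2C it was 6.62, 6.64 and 6.76 with CYC065 and 7.12, 7.16 and 7.19 without. The CYC065 arrays of these lines were all well below the untreated ones, with changes of -0.59 ± 0.06 in Kelly (1.51-fold lower, adjusted p 3.77e-04) and -0.48 ± 0.06 in BE2C (1.40-fold lower, adjusted p 0.00590), where the error is limma's moderated standard error with 3 arrays a group.

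In SKNAS the ELL level was 6.72, 6.73 and 6.63 with CYC065, against 7.07, 6.96 and 7.17 untreated. In SHSY5Y it was 6.52, 6.62 and 6.69 with CYC065, against 6.77, 6.89 and 6.97 untreated. The groups did not overlap in either line, but the gap in SHSY5Y was narrow. The limma change was -0.37 ± 0.07 in SKNAS (adjusted p 0.0153), and this call was lost without untreated array 1 (adjusted p 0.0598), without untreated array 3 (0.0648) or without CYC065 array 6 (0.0557). In SHSY5Y the change of -0.27 ± 0.08 did not pass (adjusted p 0.137, 95% interval -0.46 to -0.08). It passed with the spread shared over the 24 arrays (adjusted p 0.00994). Averaged over the 4 lines ELL fell by 0.43 ± 0.03 (adjusted p 1.33e-09), and the F test of a difference among the lines gave an adjusted p of 0.171. The authors' deposited table, which covers the later deposit only, gives ELL log2 changes of -0.48 in BE2C (adjusted p 0.0219) and -0.27 in SHSY5Y (adjusted p 0.274).

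ELL2, the close relative of ELL that is known for driving immunoglobulin secretion in plasma cells, lies on chromosome 5 (95885098 to 95961851). In Kelly it was at 4.89, 4.89 and 4.95 with CYC065 and at 5.35, 5.25 and 5.46 untreated, a change of -0.44 ± 0.06 with no overlap (limma, adjusted p 0.00207). In SKNAS it was at 6.89, 7.17 and 6.94 with CYC065 and at 7.02, 7.18 and 7.05 untreated. The SKNAS groups overlapped, and the change there was -0.08 ± 0.09 (adjusted p 0.672, 95% interval -0.28 to 0.11). The changes in BE2C and SHSY5Y were -0.06 ± 0.06 (adjusted p 0.614) and 0.06 ± 0.07 (adjusted p 0.840). The average over the lines, -0.13 ± 0.03 (adjusted p 0.00545), was -0.00 in the later deposit alone (adjusted p 0.999).

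The fall on the arrays was larger for ELL than for ELL2. Per array, the ELL value minus the ELL2 value changed by -0.30 on the average over the lines in an exact two-sided permutation within lines (160000 assignments, p 6.25e-05, adjusted over the 3 pairs of relatives 1.88e-04, with 1.25e-05 the smallest p possible). The difference was negative in each line, at -0.15 in Kelly, -0.29 in SKNAS, -0.42 in BE2C and -0.34 in SHSY5Y. These are differences of changes, not of levels, since probes of different genes are not on a common scale. ELL2 was dim in untreated SHSY5Y, at 4.31, where background control rows had array medians of 3.66 to 3.92. How far a level near background limits the ELL2 changes was not tested.

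AFF4, a scaffold of the complex, lies on the minus strand of chromosome 5 (132875395 to 132963634). Its promoter window is shown because it was the member that both fell in Kelly and carried an E-box, the core motif bound by MYC family proteins, which stands in capitals together with the GC boxes (chr5:132963585-132963884, minus strand).
AFF4: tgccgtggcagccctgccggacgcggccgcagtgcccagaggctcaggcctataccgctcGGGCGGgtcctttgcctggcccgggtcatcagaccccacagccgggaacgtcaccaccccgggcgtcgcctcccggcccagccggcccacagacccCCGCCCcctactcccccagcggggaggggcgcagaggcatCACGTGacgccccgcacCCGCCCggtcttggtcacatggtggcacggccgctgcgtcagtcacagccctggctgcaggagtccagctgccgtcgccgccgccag
On its brighter row AFF4 was at 8.62, 8.55 and 8.67 in Kelly with CYC065 and at 8.92, 8.94 and 8.98 untreated. The groups did not overlap, and the change of -0.33 ± 0.05 passed (limma, adjusted p 0.00285). The second row that carries the symbol did not show it: its levels were 7.42, 7.34 and 7.31 with CYC065 and 7.34, 7.36 and 7.24 untreated, a difference of 0.04 (adjusted p 0.592), and the mean of the rows gave -0.15 (adjusted p 0.0572). Which transcripts the rows report could not be read from the files.

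In the other lines the brighter AFF4 row differed by -0.06 ± 0.06 in SKNAS, -0.13 ± 0.05 in BE2C and -0.08 ± 0.09 in SHSY5Y, none of which passed (adjusted p 0.678, 0.249 and 0.843). The average over the lines was -0.15 ± 0.03 (adjusted p 5.58e-04) on the brighter row and 0.04 on the dimmer row (adjusted p 0.453). In the later deposit alone the average on the brighter row was -0.11 and the call was lost.

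AFF1, the other scaffold and a frequent fusion partner of MLL in infant leukemia, lies on chromosome 4 (86935011 to 87141039). In Kelly its brighter row was at 9.75, 9.55 and 9.56 with CYC065, against 9.88, 9.69 and 9.90 untreated. These groups overlapped and the change of -0.20 ± 0.08 did not pass (limma, adjusted p 0.110), while the dimmer row gave -0.26 (adjusted p 0.0157) and the mean of the rows -0.23 (adjusted p 0.0434). In SKNAS, BE2C and SHSY5Y the brighter row differed by 0.11 ± 0.08, 0.09 ± 0.09 and 0.01 ± 0.07. The change of AFF1 minus that of AFF4 averaged 0.15 over the lines and was positive in each (0.13 in Kelly, 0.17 in SKNAS, 0.22 in BE2C and 0.09 in SHSY5Y), with an exact permutation p of 9.50e-04 (0.00143 adjusted over the 3 pairs). With the mean of the rows the same difference was 0.04 (adjusted p 0.305). On the dimmer rows the order was reversed, with average changes of -0.03 for AFF1 and 0.04 for AFF4. There the AFF1 change lay below that of AFF4 in Kelly (-0.26, against 0.04), SKNAS (0.03, against 0.06) and SHSY5Y (-0.00, against 0.06). In BE2C it lay above (0.09, against 0.02). The difference on the dimmer rows was not tested.

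**Figure D3:**
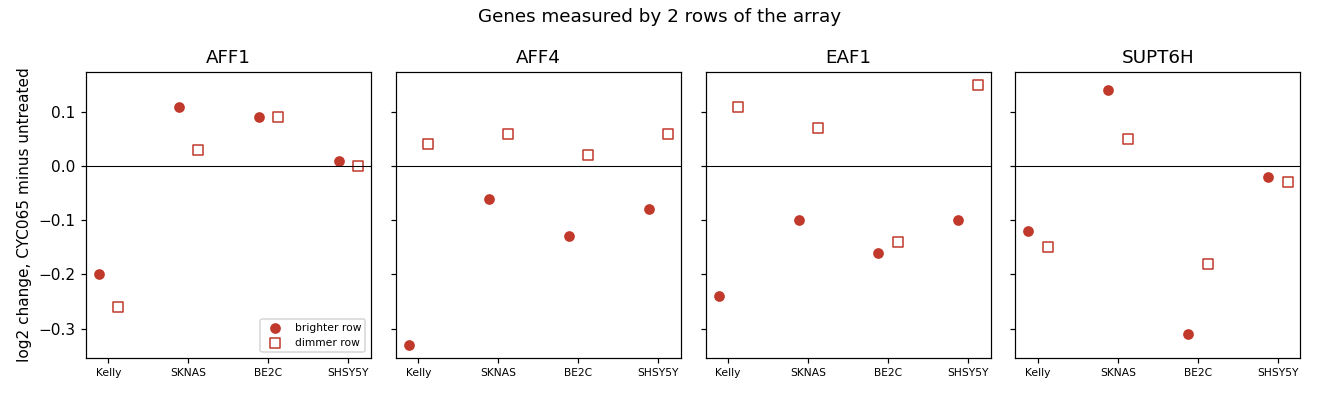
Change in each line (log2, CYC065 minus untreated) on the brighter row (filled circles) and the dimmer row (open squares) of the 4 genes that the array measures by 2 rows. The SUPT6H rows are furthest apart in BE2C (-0.31 on the brighter row and -0.18 on the dimmer), while the AFF4 rows lie on opposite sides of 0 in all 4 lines and the EAF1 rows in Kelly, SKNAS and SHSY5Y.

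EAF1, which binds ELL proteins and stimulates them, lies on the plus strand of chromosome 3 (15427598 to 15442613). Its promoter window is shown as that of the other member that fell in Kelly and has one in the table, with a CCAAT box and a GC box in capitals (chr3:15427348-15427647, plus strand).
EAF1: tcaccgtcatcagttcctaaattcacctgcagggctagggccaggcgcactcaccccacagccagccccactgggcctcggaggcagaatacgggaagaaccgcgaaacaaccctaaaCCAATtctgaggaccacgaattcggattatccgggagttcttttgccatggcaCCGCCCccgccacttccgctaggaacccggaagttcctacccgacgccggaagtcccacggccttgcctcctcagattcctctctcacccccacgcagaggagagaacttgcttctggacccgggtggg
On its brighter row EAF1 was at 7.54, 7.58 and 7.64 in Kelly with CYC065 and at 7.86, 7.75 and 7.88 untreated. The groups did not overlap, and the change was -0.24 ± 0.05 (limma, adjusted p 0.0189). That call was lost after quantile normalisation (adjusted p 0.0666) and on leaving out untreated array 1 or 3 or CYC065 array 4 or 5 (highest adjusted p 0.0749). On the dimmer row the difference was 0.11 (adjusted p 0.400).

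EAF1 differed by -0.10 ± 0.07 in SKNAS, -0.16 ± 0.08 in BE2C and -0.10 ± 0.07 in SHSY5Y on the brighter row, and none of these passed. The average over the lines was -0.15 ± 0.03 (limma, adjusted p 0.00124) on the brighter row, against 0.05 on the dimmer row (adjusted p 0.458). In the later deposit alone the average on the brighter row was -0.13 and did not pass.

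Promoter windows of 300 bases were listed for 9 of the 10 members, ELL2 being the exception, with more than 1 start for AFF1 and SUPT5H. The motifs were searched on both strands. They were the E-box CACGTG and the GC box GGGCGG. The CCAAT box was spelled by those letters, the TATA box as TATAAA and the cyclic AMP response element as TGACGTCA. A GC box occurred in every window of the members, in a reference set of 35116 windows of which 45.0% hold one. The members' windows had a GC content of 60.0% to 77.7%, against a median of 58.7% over all windows. The E-box occurred in the windows of AFF4 and MLLT1 (7.26% of all windows), and the CCAAT box in those of AFF1, EAF1, MLLT1 and MLLT3 (34.6%). No window of a member held the TATA box (11.5% of all windows) or the cyclic AMP response element (1.85%). MLLT1, the other E-box holder, did not pass a test of change in any line.

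MLLT1 (chromosome 19, 6210381 to 6279975) and MLLT3 (chromosome 9, 20341669 to 20622499) encode the YEATS domain readers of the complex. In Kelly MLLT1 was at 8.47, 8.50 and 8.52 with CYC065 and at 8.63, 8.56 and 8.64 untreated, whereas in SKNAS it was at 9.18, 9.16 and 9.17 with CYC065 and at 9.04, 8.90 and 9.11 untreated. All CYC065 arrays were thus below the untreated ones in Kelly and above them in SKNAS, although neither change passed alone (-0.11 ± 0.05, adjusted p 0.127, and 0.15 ± 0.07, adjusted p 0.288, in limma). The changes were 0.06 ± 0.05 in BE2C and 0.07 ± 0.07 in SHSY5Y. MLLT3 differed by -0.06 ± 0.06 in Kelly, -0.05 ± 0.07 in SKNAS, 0.05 ± 0.05 in BE2C and -0.03 ± 0.08 in SHSY5Y, and its average over the lines had a 95% interval of -0.09 to 0.04. The change of MLLT1 minus that of MLLT3 averaged 0.06, which did not pass the exact permutation test (p 0.151, adjusted p 0.151).

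The DSIF genes had small average changes. SUPT5H (chromosome 19, 39445582 to 39476670), which encodes the SPT5 subunit that CDK9 phosphorylates, lay between 8.89 and 9.00 in Kelly with CYC065 and between 8.85 and 8.96 untreated. Its average change over the lines was 0.04 ± 0.02 (95% interval -0.01 to 0.09, limma adjusted p 0.231), and the values by line ran between -0.01 and 0.09. After quantile normalisation the average was called higher, at 0.06 (adjusted p 0.0206). SUPT4H1 (chromosome 17, 58345178 to 58352201), the SPT4 subunit, averaged -0.01 ± 0.03 (95% interval -0.07 to 0.05, adjusted p 0.779). These intervals exclude an average change of the size seen for ELL.

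SUPT6H (chromosome 17, 28662205 to 28702679) had its widest changes, in opposite directions, in BE2C and SKNAS. In BE2C it was at 10.04, 10.00 and 9.83 with CYC065 and at 10.22, 10.34 and 10.24 untreated, while in SKNAS it was at 9.95, 10.04 and 10.11 with CYC065 and at 9.83, 9.94 and 9.90 untreated. On this brighter row the groups were apart in opposite directions in these lines. On the dimmer row the BE2C change was -0.18, and the SKNAS groups overlapped (9.13, 9.20 and 9.24 with CYC065, against 9.09, 9.19 and 9.15 untreated, a difference of 0.05). On the brighter row the BE2C change of -0.31 ± 0.07 had an adjusted p of 0.0682 in limma, and 0.0464 once dim genes were left out of the fit. SKNAS gave 0.14 ± 0.07 (adjusted p 0.294), Kelly -0.12 ± 0.07 and SHSY5Y -0.02 ± 0.14. The F test of a difference among the lines did not pass for SUPT6H (adjusted p 0.260). The average over the lines was -0.08 ± 0.05 (adjusted p 0.262), but -0.12 without SHSY5Y untreated array 3, which passed (adjusted p 0.0299).

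Whether the response itself differed between lines was tested in 1 fit over the 24 arrays. The F test among the 4 lines called 1 member, ELL2 (adjusted p 0.00820), where 5.52% of all genes were called. That adjusted p stayed between 8.47e-04 and 0.0409 over 30 alternatives. For Kelly minus SKNAS 2 members were called, ELL2 at -0.36 ± 0.10 (adjusted p 0.0339) and MLLT1 at -0.26 ± 0.07 (adjusted p 0.0402), where 4.15% of all genes were called. Both are near the threshold. ELL2 lost the call without any of Kelly untreated arrays 1 and 3, Kelly CYC065 arrays 4 and 5, SKNAS untreated arrays 1 and 3 and SKNAS CYC065 array 5 (adjusted p up to 0.115), and MLLT1 lost it in 13 of the 24 such fits (up to 0.117). The SKNAS dose is uncertain, so line and dose cannot be told apart in this contrast. For BE2C minus SHSY5Y 0 members were called (1.08% of all genes), with ELL at -0.21 ± 0.09 (adjusted p 0.471).

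Untreated levels differed between lines for most members, by up to 3.31-fold. Between untreated Kelly and SKNAS 9 of the 10 members differed in limma, where 38.5% of all genes did. By mean level ELL2 stood at percentile 48.8 of the named genes and the other members at 71.0 to 98.9. Shares among genes of like level were not computed, here or for the other comparisons. ELL2 was the widest: 5.35 ± 0.11 in Kelly and 7.08 ± 0.09 in SKNAS (SD, n = 3 each), a difference of -1.73 ± 0.07 or 3.31-fold lower in Kelly (adjusted p 5.68e-11). AFF1 was 9.82 ± 0.11 in Kelly and 8.41 ± 0.10 in SKNAS, 2.67-fold higher in Kelly (adjusted p 7.08e-09). MLLT3 was at 7.43 in Kelly and 6.40 in SKNAS, 2.04-fold higher in Kelly (adjusted p 4.95e-09).

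The remaining differences, Kelly minus SKNAS, were smaller. SUPT6H (0.65), EAF1 (0.46) and SUPT5H (0.26) were higher in Kelly, and SUPT4H1 (-0.54), MLLT1 (-0.41) and AFF4 (-0.22) were lower. On the dimmer EAF1 row the difference was 0.06 and did not pass (adjusted p 0.676). The AFF4 call (adjusted p 0.0188) was lost with the mean of the rows and without untreated Kelly array 1 or 2 or untreated SKNAS array 2 or 3 (adjusted p up to 0.0784). ELL did not pass, at 0.11 ± 0.07 (adjusted p 0.257), although it was the member that fell most widely with CYC065.

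Between untreated BE2C and SHSY5Y 8 members differed, where 32.4% of all genes did. The share of higher calls over all genes was 53.1%, and 65.6% with arrays centred on their medians. ELL2 was 5.28 ± 0.05 in BE2C and 4.31 ± 0.03 in SHSY5Y, 1.96-fold higher in BE2C (limma, adjusted p 6.04e-08). AFF1 was 9.14 ± 0.16 in BE2C and 8.24 ± 0.05 in SHSY5Y, 1.86-fold higher in BE2C (adjusted p 1.47e-06). MLLT1 (0.46), SUPT5H (0.30) and ELL (0.28) were also higher in BE2C, and EAF1 (-0.72), MLLT3 (-0.55) and SUPT4H1 (-0.44) were lower. On the dimmer EAF1 row the difference was -0.23 and did not pass (adjusted p 0.0753). AFF4 at -0.01 and SUPT6H at -0.07 did not pass (adjusted p 0.946 and 0.653), and both did after quantile normalisation, at -0.19 and -0.27, while SUPT5H at 0.12 then did not (adjusted p 0.0521).

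AFF1 and SUPT5H were thus higher, and SUPT4H1 lower, in the MYCN-amplified line of each deposit, while MLLT1, MLLT3 and ELL2 differed in opposite directions in the deposits, as did EAF1 on its brighter row only. With 1 amplified and 1 other line in each deposit, the amplification and every other difference between the lines cannot be told apart.

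ELL and EAF1 were the members with the largest average changes, although EAF1 and AFF4 are equal at the digits given (-0.15 each). The genes most like ELL and EAF1 were sought by Pearson's r over the 24 arrays, among the 15452 named genes above the median level. Each value was first centred on the mean of its line. These correlations share the arrays and the treatment, so a gene that fell with CYC065 in all lines tends to score high. They are given as a description. For ELL they were the readthrough transcript PPAN-P2RY11 (r 0.98), then BRF2, a subunit of RNA polymerase III transcription factor, TAOK2, a kinase, TOB2, an antiproliferative protein, and ZNFX1, a zinc finger helicase (0.96 each). Their average changes ran from -0.36 for PPAN-P2RY11 to -0.79 for TOB2. For EAF1 they were PARP2, a DNA repair enzyme (0.89), NASP, a histone chaperone, TAF1A, an RNA polymerase I factor, and RRP36, a ribosome biogenesis factor (0.88 each), and RASA2 (0.87). Among the members ELL was most like EAF1 (0.76), AFF4 (0.68) and ELL2 (0.63).

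Beyond the members, 35 other elongation genes were listed by role, of which 33 were measured (NELFE and KMT2A matched no row). In Kelly 10 were called lower and 1 higher, in SKNAS 5 and 0, in BE2C 4 and 1, and in SHSY5Y 4 and 0, to be read against the shares over all genes given above for each line and direction. Over the alternatives the count called lower ran from 8 to 12 in Kelly, 3 to 6 in SKNAS (3 without SKNAS untreated array 2), 3 to 6 in BE2C and 3 to 9 in SHSY5Y (9 with array weights), and the count called higher was 0 to 2, 0 to 1, 0 to 1 and 0. The median change over the list was -0.09, -0.02, -0.04 and -0.02 in these lines. Of the genes called lower, P-TEFb and its inhibitory 7SK complex, with 8 genes measured, held 5 in Kelly, 4 in SKNAS, 3 in BE2C and 3 in SHSY5Y. The cyclin gene CCNT1 and MEPCE, which caps 7SK RNA, fell in all 4 lines, with average changes of -0.64 ± 0.04 and -0.67 ± 0.03 (limma, adjusted p 9.60e-12 and 1.49e-14). HEXIM1, the inhibitor of P-TEFb, fell in Kelly, SKNAS and SHSY5Y, and its change of -0.21 ± 0.08 in BE2C did not pass (adjusted p 0.250). CDK9 and the second cyclin gene CCNT2, named here after their values were seen, fell on the average, with changes of -0.18 ± 0.02 and -0.39 ± 0.05 (adjusted p 1.54e-06 and 7.61e-07).

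MLLT10, a partner of the histone methyltransferase DOT1L, was the only listed gene outside P-TEFb and 7SK to be called lower in all 4 lines, with changes of -0.49 ± 0.06 in Kelly, -0.32 ± 0.07 in SKNAS, -0.29 ± 0.05 in BE2C and -0.46 ± 0.09 in SHSY5Y. The SKNAS, BE2C and SHSY5Y calls (adjusted p 0.0214, 0.0242 and 0.0185) were each lost without any of several single arrays, with adjusted p up to 0.0864, 0.104 and 0.0817. DOT1L itself averaged -0.04 ± 0.02 (adjusted p 0.178). Of the PAF1 complex LEO1 fell in Kelly, with a change of -0.53 ± 0.06 (adjusted p 4.05e-04). LEO1 changed by -0.20 in SKNAS, -0.15 in BE2C and -0.36 in SHSY5Y, none of which passed alone. Its average over the lines was -0.31 ± 0.03 (limma, adjusted p 1.23e-07), and the F test among the lines passed (adjusted p 0.0350). PAF1 averaged -0.09 ± 0.02 (adjusted p 0.00501), a call lost in the earlier deposit alone (0.108) and in the later one alone (0.149). Of the little elongation complex, which drives small nuclear RNA genes with ELL, the scaffold gene ICE1 fell in Kelly, with a change of -0.56 ± 0.05 (adjusted p 1.35e-04). ICE1 changed by -0.08 in SKNAS, -0.23 in BE2C and -0.14 in SHSY5Y, none of which passed alone. Its average over the lines was -0.25 ± 0.05 (limma, adjusted p 8.48e-04), a call lost in the later deposit alone (0.247). The F test among the lines did not pass for ICE1 (adjusted p 0.184). ZC3H8 averaged -0.05 ± 0.05.

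**Figure D4:**
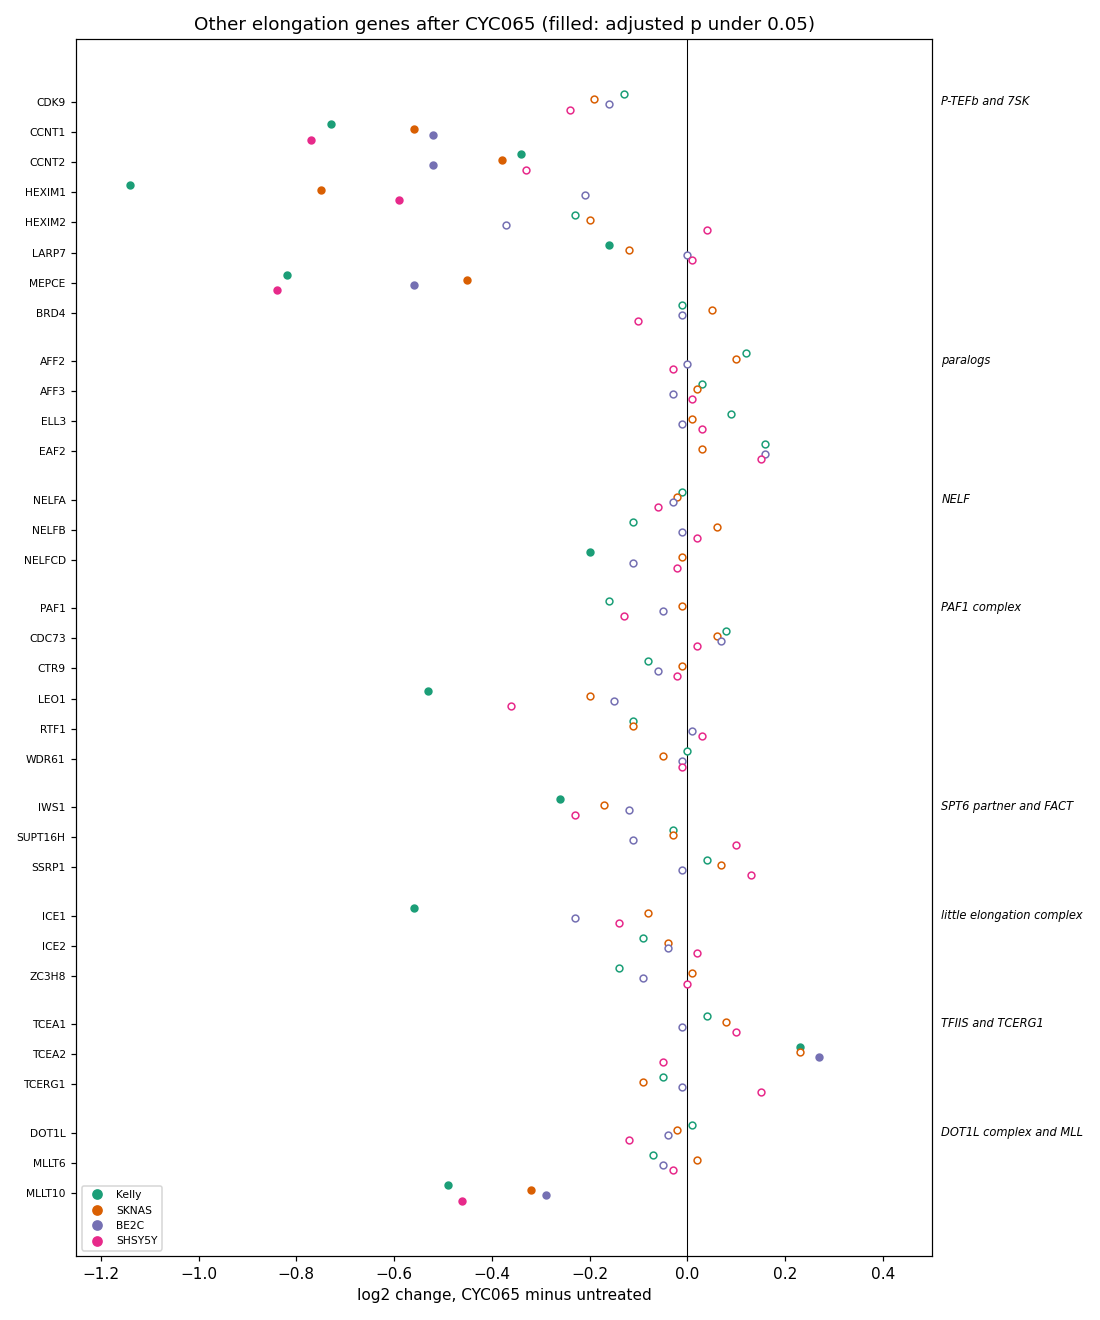
Changes of the 33 other elongation genes (log2, CYC065 minus untreated), grouped by role, with 1 point per line and filled points at an adjusted p under 0.05. The largest falls are those of HEXIM1, MEPCE and CCNT1, while the points of the NELF, FACT and paralog genes lie between -0.20 (NELFCD in Kelly) and 0.16 (EAF2 in Kelly and BE2C).

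The SPT6 partner IWS1 fell in Kelly, with a change of -0.26 ± 0.05 (adjusted p 0.00799, and 0.0670 after quantile normalisation). IWS1 changed by -0.17 in SKNAS, -0.12 in BE2C and -0.23 in SHSY5Y, none of which passed alone. Its average over the lines was -0.19 ± 0.03 (limma, adjusted p 1.88e-05), and the F test of a difference among the lines did not pass (adjusted p 0.735). The FACT subunit SSRP1 averaged 0.06 ± 0.03 (adjusted p 0.161). Of NELF, which shares the pausing role of DSIF, NELFCD fell in Kelly, with a change of -0.20 ± 0.05 (adjusted p 0.0272). That call was lost without Kelly untreated array 1, 2 or 3 or CYC065 array 4 or 5 (up to 0.0922). It was also lost on the dimmer NELFCD row (0.317). The NELFCD average was -0.09 ± 0.02 (adjusted p 0.0116), a call lost with the mean of its rows (0.582) and in the later deposit alone (0.404). NELFA averaged -0.03 ± 0.02 (adjusted p 0.403). No paralog of a member was called in any line. AFF2 averaged 0.05 ± 0.02 (adjusted p 0.137). EAF2 had a mean level of 3.88, within the array medians of the background control rows (3.29 to 4.04), so its average difference of 0.12 ± 0.03 (adjusted p 0.00582) is of a signal not above background. That call was also lost after quantile normalisation (0.0826) and in each deposit alone (0.142 and 0.0703). TCEA2, a TFIIS gene, was called higher in Kelly and BE2C, by 0.23 ± 0.07 and 0.27 ± 0.05 (adjusted p 0.0462 and 0.0325). The calls were lost in 5 of the 6 Kelly fits that left out 1 array (adjusted p up to 0.136) and in all 6 BE2C fits (up to 0.128). In BE2C the mean of its rows gave 0.16 (adjusted p 0.124) and the dimmer row 0.05 (0.695). TCEA1 averaged 0.05 ± 0.03 (adjusted p 0.138).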

How the data were processed

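The deposited human table holds log2 values per array row; per the submitters' processing notes the tools were RMA, affy and limma, with no version or role stated. RMA as a rule scales arrays to one distribution, and a global change in RNA is then not seen. Array medians over the named genes still ran from 5.34 to 5.67, so the deposited values of these genes do not share one distribution. The authors' deposited table gives log2 changes, mean levels, p-values and adjusted p-values per symbol for BE2C and SHSY5Y. Rows were named by matching those values within 1e-07: of 33720 symbols 26595 matched 1 row and 4310 a pair of rows (the brighter was used), together 91.7%. Of the members, AFF1, AFF4, EAF1 and SUPT6H have 2 rows. Genome build and annotation behind the rows are not given in the sources used here. The mouse rows could not be named.

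Changes were tested with limma 3.58.1 in R 4.3.3 on group means, 3 arrays against 3 within a line, or 8 means over 24 arrays for the average, the F test and differences between lines; untreated levels used the 12 untreated arrays. P-values were adjusted by Benjamini-Hochberg over 30905 genes. Values after ± are limma's moderated standard errors where a change or difference is given, and SDs beside levels; the number of arrays limits the precision. Pairs of relatives were tested by exact permutation within lines. All members are named, and from the elongation list the 2 genes per role with the largest average change and those called alike in all 4 lines. The scripts were tested on simulated data. Members and lists were chosen with earlier results of these data known. Alternatives were quantile normalisation, median centring, leaving out dim genes, array weights, the mean or dimmer of 2 rows, a shared spread, a minimum fold of 1.5, each deposit alone, a replicate block, and leaving out each array or, for the pairs, each line. A further adrenergic marker is not reported here.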

Additional observations from a re-analysis of the deposited data

Results flagged for a closer look

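ELL2 stood out because its response to CYC065 differed among the 4 lines in the F test (limma, adjusted p 0.00820), and between Kelly and SKNAS, at -0.36. MLLT1 was singled out on the same Kelly minus SKNAS test, at -0.26.

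For MLLT1, every CYC065 array lay below every untreated array in Kelly (-0.11) and above it in SKNAS (0.15) and SHSY5Y (0.07). The gap in SHSY5Y was narrow (lowest 8.73 with CYC065, highest 8.72 untreated). The difference between Kelly and SHSY5Y was not tested as such. For SUPT6H, every CYC065 array lay below in BE2C (-0.31) and above in SKNAS (0.14), and this difference between lines of separate deposits was not tested as such. These are values of the brighter row: on the dimmer SUPT6H row BE2C gave -0.18, and in SKNAS the groups overlapped (0.05). The F test among the 4 lines did not pass for SUPT6H (adjusted p 0.260). The SKNAS dose is given in conflicting ways, and its part in these differences was not tested.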

How the results depend on the processing

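Over the alternatives run for each member and for each called gene of the elongation list, 1746 of 1917 values kept their direction and their side of the threshold, 109 lost a call, 11 gained one and 51 turned sign. The counts of members called moved as follows. A minimum fold of 1.5 left 1 in Kelly, 0 in SKNAS and 0 in BE2C. Leaving out dim genes gave 2 in BE2C. Array weights gave 1 in SHSY5Y and 4 in the F test, and the shared spread gave 1 in SHSY5Y. For the average, the mean of 2 rows gave 2, the later deposit alone 1 and the dimmer row 2, and the dimmer row gave 2 in the F test. The dimmer row was an alternative chosen after seeing the data. Kelly minus SKNAS gave 1 after quantile normalisation, 0 with median centring, 0 with the replicate block and 0 to 3 when 1 array was left out. The SKNAS count was 0 to 1 when 1 array was left out, and AFF1 minus AFF4 was 0.04 with the mean of rows. The replicate block changed no other count between lines. Same-numbered arrays of the 2 lines of a deposit, each taken as its deviation from the group mean, correlated at -0.268 to 0.127. They were not set against arrays of other numbers, so pairing by number is not excluded. Pairing of untreated with CYC065 arrays within a line was not tested.

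Most signs that turned were of values that had passed no test. AFF4 and EAF1 in Kelly and on the average, and NELFCD on the average, had been called. The untreated AFF4 difference between Kelly and SKNAS had been called too. With the dimmer row AFF4 was at 0.04 (Kelly), 0.06 (SKNAS), 0.02 (BE2C), 0.06 (SHSY5Y) and 0.04 (average), EAF1 at 0.11 (Kelly), 0.07 (SKNAS), 0.15 (SHSY5Y) and 0.05 (average), AFF1 at -0.00 (SHSY5Y) and -0.03 (average), NELFCD at 0.04 (average), and the untreated differences of AFF4 (Kelly over SKNAS) and SUPT6H (BE2C over SHSY5Y) at 0.02 and 0.01. With the mean of rows EAF1 was at 0.02 in SHSY5Y and AFF1 at -0.02 on the average. Quantile normalisation put MLLT3 at 0.04 (Kelly), 0.03 (SHSY5Y) and 0.04 (average), SUPT4H1 at -0.02 in SKNAS and SUPT5H at 0.02 in BE2C. Median centring put SUPT5H at 0.01 in BE2C and AFF4 at 0.06 (untreated BE2C over SHSY5Y), and array weights put SUPT5H at 0.01 in BE2C and AFF1 at -0.05 in SHSY5Y. The earlier deposit alone gave AFF1 -0.05, SUPT4H1 0.04 and SUPT6H 0.01, and the later one MLLT3 0.01. With 1 array left out the ranges that crossed 0 were -0.04 to 0.11 for SUPT4H1 in SKNAS, -0.04 to 0.02 for SUPT5H in BE2C, -0.01 to 0.05 for AFF1, -0.10 to 0.01 for MLLT3 and -0.17 to 0.07 for SUPT6H in SHSY5Y, -0.02 to 0.02 for AFF1 and -0.03 to 0.01 for SUPT4H1 on the average, and -0.07 to 0.05 for AFF4 and -0.22 to 0.02 for SUPT6H in untreated BE2C over SHSY5Y. The cause was not tested. Background control rows had array medians of 3.29 to 4.04, so ELL2 in SHSY5Y, at 4.31 untreated, was the member closest to background.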
